A study of Mus musculus with 2 samples.

Results

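The endothelial cells of 2 coronal sections of the embryonic mouse brain were picked out by their transcripts in MERFISH data, an imaging method that reads the position of single RNA molecules and assigns them to segmented cells. A cell was taken as endothelial when it held at least 20 transcripts of the 500 panel genes, when *Cldn5*, *Flt1* and *Adgrf5* together gave at least 3 counts and at least 3% of its transcripts, and when their sum exceeded that of *Kcnj8*, *Abcc9*, *Pdgfrb* and *Acta2*, which mark the mural cells (pericytes and smooth muscle cells) around vessels. By this rule 1171 of 55231 cells were endothelial in the control section (Ctrl) and 3225 of 101250 in the knockout section (KO). The 7 genes of the rule are described below and were left out of the gene counts against other cells, since they chose the cells. The medians and counts over genes between the sections include them.

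Both sections came from fresh-frozen heads at E16.5 (embryonic day) and were 10 µm thick. The Ctrl embryo carried *Sst-Cre/tdTomato* and the KO embryo *Sst-Cre/tdTomato/Dnmt1 loxP2*, so both genotypes held the Cre driver and the tdTomato reporter and differed in the floxed *Dnmt1* allele. Cre was under the control of *Sst*, a gene of GABAergic interneurons, and the *Sst* level in endothelial cells, 249 counts per 1e+06 panel transcripts (CPM) in Ctrl and 264 CPM in KO, lay below that of the brightest blank barcode (399 and 523 CPM), a code assigned to no gene. The panel had no probe set for *Dnmt1*, so its deletion could not be read here. With 1 section per group there was no replicate, no test was possible, and genotype and section cannot be told apart in any Ctrl to KO difference below. Intervals are 95% intervals, exact Poisson for counts and exact binomial for shares, and cover counting error only.

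Endothelial cells line blood vessels. In the embryonic brain they enter from a plexus in the leptomeninges at the surface, branch through the wall of the forebrain and build the blood-brain barrier, whose tight junctions contain claudin 5, the product of *Cldn5*. *Flt1* encodes a receptor for VEGF that restrains sprouting, *Adgrf5* an adhesion receptor of endothelium, and *Aplnr* the receptor for apelin, which is found on growing vessels and veins. Lymphatic endothelium, which depends on the transcription factor *Prox1*, runs outside the brain tissue.

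The chosen cells carried 60139 panel transcripts in Ctrl and 477807 in KO, with a median of 44 transcripts per cell (20 to 275) in Ctrl and 127 (20 to 765) in KO. The KO section gave more transcripts per cell, called its depth below, and the reason for this was not tested. Depth touched the choice of cells: 304 of the Ctrl cells (26.0%) had exactly 3 marker counts, the lowest number allowed, against 203 (6.29%) in KO. Just outside the limit, 432 cells in Ctrl and 162 in KO had 2 marker counts. Near the limit on the share, 33 Ctrl and 455 KO cells were chosen with 3 to 4% of marker transcripts, and 21 and 471 were left out with 2 to 3%. A further 74 and 515 cells were left out because their mural sum was as large. The marker sum had a median of 5 counts in Ctrl and 11 in KO and reached 27 and 111. The median marker share of a chosen cell was 12.2% in Ctrl and 8.93% in KO. No cell identifier was shared between the sections.

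The chosen cells held part of the marker RNA on each slide. Of all *Cldn5*, *Flt1* and *Adgrf5* molecules, 46.8% (46.0 to 47.6) in Ctrl and 58.2% (57.8 to 58.5) in KO lay in the endothelial cells. Other cells with at least 20 transcripts held 26.3% and 25.1%, and 14.2% and 16.51% lay outside segmented cells. Cells under the minimum of 20 transcripts held 12.7% in Ctrl and 0.232% in KO. *Aplnr*, which the rule did not use, was found in the endothelial cells with 25.1% of its molecules in Ctrl and 40.5% in KO.

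Endothelial cells made up 2.12% (2.002 to 2.244) of the cells with at least 20 transcripts in Ctrl and 3.19% (3.08 to 3.30) in KO, a log2 ratio of 0.59 (0.46 to 0.72). When the KO transcripts were thinned at random (21.4% kept) to the mean transcripts per segmented cell of Ctrl and the rule was applied again, 1371 KO cells remained, or 2.26% (2.15 to 2.39), and the log2 ratio was 0.09. The share of endothelial cells was thus higher in the KO section as deposited and nearer to that of Ctrl after this thinning, which matched the mean depth but not its spread over cells. With a minimum of 50 transcripts per cell in place of 20 the log2 ratio was −0.10, from 501 Ctrl and 2976 KO endothelial cells. This value is near 0 and is given without an interval, so no turn of direction is read from it.

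The cells were then placed on the sections. The brain outline was drawn where 8 connective tissue genes made up 2% of local transcripts, and 3 territories were set: the brain interior, a surface belt from 100 µm outside to 50 µm inside the outline, and the outer tissue beyond. The belt also took in connective islands in the cleft between the hemispheres and a small patch inside the Ctrl brain. These limits were set after the maps had been seen. *Col15a1*, 1 of the 8 genes, was itself higher in endothelial than in other cells, with log2 ratios of 2.27 in Ctrl and 2.84 in KO. The part of endothelial cells in placing the outline was not tested.

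**Figure D1:**
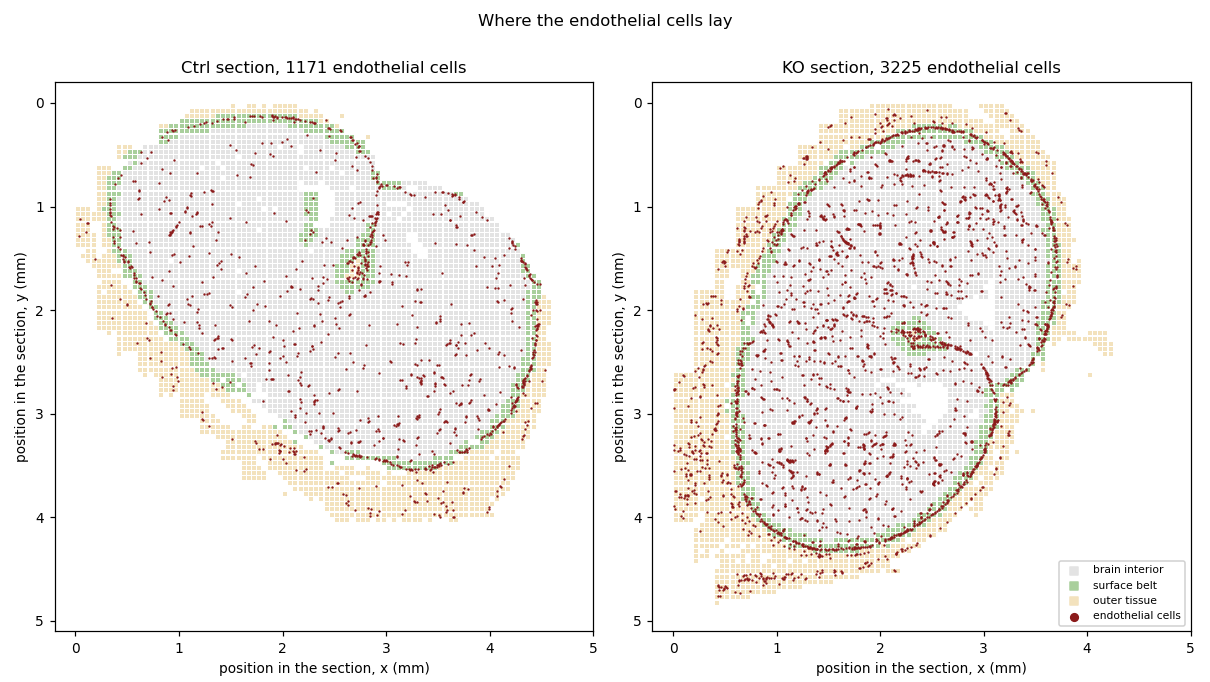
Positions of the 1171 Ctrl and 3225 KO endothelial cells (dark red points) in mm, over the brain interior (grey), surface belt (green) and outer tissue (sand) drawn in bins of 25 µm. In both sections endothelial cells form a nearly closed ring on the brain surface, enter the cleft between the hemispheres and lie scattered through the interior.

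Endothelial cells were densest at the brain surface in both sections. In Ctrl the belt held 418 endothelial cells among 5208 cells (8.03%, 7.30 to 8.80), the interior 590 of 39722 (1.49%) and the outer tissue 163 of 10301 (1.58%). In KO the belt held 999 of 10024 (9.97%, 9.39 to 10.6), the interior 1618 of 74774 (2.16%) and the outer tissue 608 of 16452 (3.70%). The belt thus contained 35.7% of the Ctrl and 31.0% of the KO endothelial cells, although only 9.43% and 9.90% of all cells lay there. The log2 ratio of the belt share to the interior share was 2.43 (2.18 to 2.68) in Ctrl and 2.20 (2.05 to 2.36) in KO.

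By distance from the outline, the share peaked 50 to 100 µm outside it, at 12.6% in Ctrl and 18.9% in KO. It was 9.27% and 11.8% from 0 to 50 µm outside, 3.80% and 2.33% in the first 50 µm inside, and 2.01% and 1.43% from 50 to 100 µm inside. Deeper in the brain it lay between 1.28% and 1.54% in Ctrl and between 2.08% and 2.43% in KO. In KO the value from 50 to 100 µm inside (1.13 to 1.77) lay below those on either side of it, while in Ctrl the intervals of the bins deeper than 50 µm overlapped in part and the deepest, from 14 endothelial cells, spanned 0.70 to 2.14%.

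**Figure D2:**
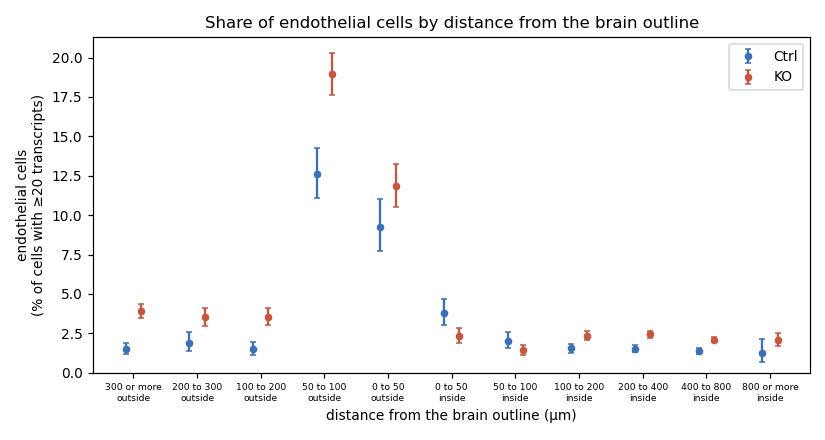
Endothelial cells as a percentage of cells with at least 20 transcripts (vertical axis) by distance from the brain outline in µm (horizontal axis), for Ctrl (blue) and KO (red), with exact binomial 95% intervals. Both sections peak 50 to 100 µm outside the outline, at 12.6% and 18.9%.

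Endothelial cells lay beside one another, as cells along vessels do. The nearest other endothelial cell was a median of 18.4 µm away in Ctrl and 12.2 µm in KO, against 59.7 and 39.9 µm from a cell of another kind to its nearest endothelial cell. Within 20 µm, 53.3% of endothelial cells in Ctrl and 73.0% in KO had another endothelial cell, against 8.64% and 16.49% of other cells. Linking endothelial cells closer than 20 µm into groups left 46.7% of them alone in Ctrl and 27.0% in KO, and put 14.0% and 31.6% in groups of 5 or more. In the belt these larger groups held 26.1% of the endothelial cells in Ctrl and 61.3% in KO, and the largest groups had 13 and 22 cells. These distances shrink as more cells are recognised, and the part of read depth in the section difference was not tested.

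Mural cells, which wrap capillaries and larger vessels, were frequent neighbours. A cell that met the same rule with mural and endothelial genes exchanged lay within 20 µm of 24.6% of endothelial cells in Ctrl and 42.6% in KO, against 5.70% and 11.1% of other cells. In the interior the values were 15.6% and 37.8% against 2.20% and 7.12%. Cells in which *Csf1r*, *Cx3cr1* and *C1qa* gave at least 3 counts and 3% of at least 20 transcripts are called microglial here. This class of microglia and macrophages had 357 of 760 cells in Ctrl and 653 of 1516 in KO in the outer tissue. Such cells lay within 20 µm of 17.3% and 21.2% of endothelial cells, against 5.92% and 7.82% of other cells. In the belt the values were 31.8% and 38.7% against 13.9% and 15.3%. In the outer tissue the values lay closer, at 17.4% (11.9 to 24.1) in Ctrl and 21.3% (18.1 to 24.8) in KO against 14.9% and 17.8%. The number of endothelial cells per mural cell was 3.33 in the interior, 2.66 in the belt and 0.27 in the outer tissue of Ctrl, and 2.57, 2.34 and 0.31 in KO. Outside the brain, mural marker cells thus outnumbered endothelial cells in both sections. All 4 mural genes were higher in the other cells of the outer tissue than in those of the interior. *Pdgfrb* was there at 3803 against 418 CPM in Ctrl and 3872 against 451 CPM in KO. *Acta2* was at 4224 against 213 CPM and 5897 against 110 CPM. How many mural marker cells of the outer tissue were pericytes or smooth muscle cells was not tested.

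The label was checked against genes the rule did not use. Of 49 further endothelial genes listed, 4 were on the panel: *Aplnr*, *Nrp1*, *Ackr1* and *Prox1*. *Aplnr* was the gene with the greatest excess in endothelial cells over other cells, at 16346 CPM (15340 to 17400) against 865 CPM in Ctrl and 16322 CPM (15962 to 16689) against 606 CPM in KO, log2 ratios of 4.24 and 4.75. *Nrp1*, a co-receptor of VEGF and semaphorins that neurons also express, stood at 8514 against 5375 CPM in Ctrl and 15661 against 8949 CPM in KO. *Prox1* was at 2976 against 1901 CPM and 3449 against 1834 CPM. *Ackr1*, an atypical chemokine receptor of venules, was lower in endothelial cells, at 432 against 809 CPM and 649 against 1370 CPM, and its endothelial level was close to that of the brightest blank barcode. Thus 1 of the 4 genes was at least 2-fold higher in endothelial cells in each section, where 7.33% of all tested genes outside the rule in Ctrl and 8.59% in KO were that much higher, and *Ackr1* was more than 2-fold lower in KO.

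The genes of the rule, given only as a description, stood far apart. *Cldn5* reached 102147 CPM in Ctrl and 83394 CPM in KO against 1163 and 943 CPM in other cells, *Flt1* 12504 and 11856 CPM against 400 and 390 CPM, and *Adgrf5* 3376 and 5335 CPM against 200 and 272 CPM. Mural genes were not absent from the cells: *Pdgfrb*, the receptor by which pericytes answer to endothelial PDGF, was at 4490 and 4766 CPM in endothelial cells against 1494 and 1285 CPM in others, although each cell had to hold less mural than endothelial signal. The mural sum was 0 in 58.2% of the Ctrl and 36.1% of the KO endothelial cells. *Cspg4*, a pericyte proteoglycan that the rule did not use, had log2 ratios of 0.53 and 1.02.

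In both sections 21 genes were at least 2-fold higher in them than in other cells and 112 at least 2-fold lower, where each section by itself had 7.33% and 8.59% of tested genes higher and 50.3% and 31.3% lower. *Cobll1*, an actin regulator, was at 6518 against 732 CPM in Ctrl and 6681 against 652 CPM in KO. The immediate-early factors *Junb* and *Nr4a1* had log2 ratios of 2.99 and 2.44 in Ctrl and 2.96 and 2.62 in KO. Among receptors, *Adora2a*, for adenosine, was at 4756 against 935 CPM in Ctrl and 4385 against 772 CPM in KO. *Fzd4*, through which Wnt ligands and norrin induce barrier properties, was at 2644 against 739 CPM and 3269 against 542 CPM. *Unc5b*, a netrin receptor of sprouting vessels, was at 3159 against 895 CPM and 4163 against 897 CPM.

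*Ptprm*, a receptor phosphatase of endothelial junctions, was the most abundant of the 15 genes with the highest ratios, at 36482 against 10742 CPM in Ctrl and 22354 against 5862 CPM in KO. *Col15a1*, a collagen next to basement membranes, was at 9877 against 2044 CPM and 10787 against 1501 CPM. *Nr2f2*, a transcription factor of venous identity, had log2 ratios of 1.18 and 1.68. The chemokine *Cxcl12* had 1.42 and 1.87. The remaining 4 of the 15 were *Tacr3*, *Sgk1*, *Hebp1* and *Inpp4b*, of which *Tacr3*, a neurokinin receptor, ranked highest with 2.07 and 2.38. These ratios are against all other cells, most of them neural, and do not set the genes apart from mural cells.

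**Figure D3:**
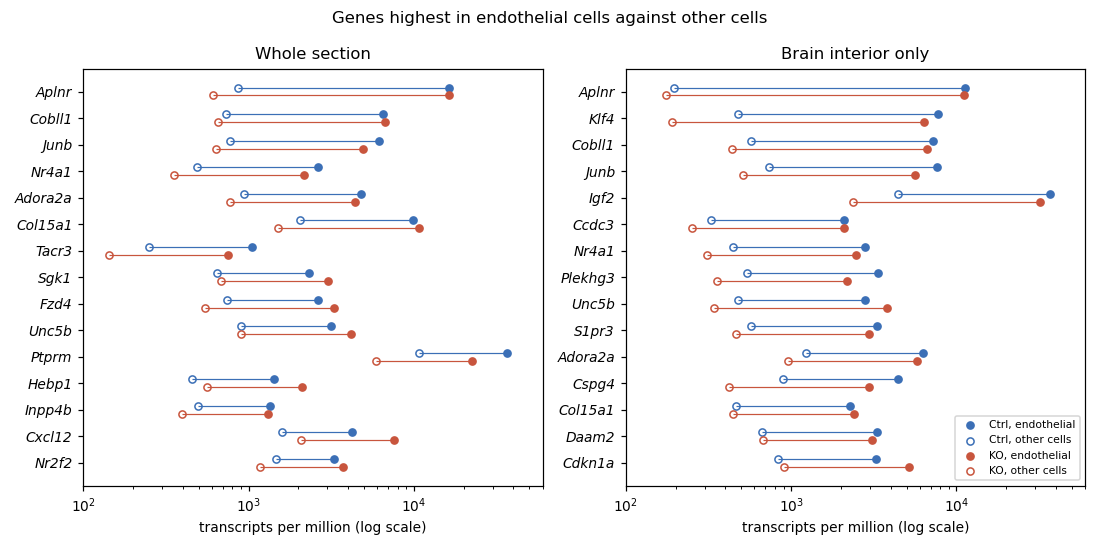
Levels (CPM, log scale) of the 15 genes with the highest ratio of endothelial (filled points) to other cells (open points) in Ctrl (blue) and KO (red), over the whole section and within the brain interior, where *Klf4* and *Igf2* enter. *Aplnr* leads both panels, with 16346 and 16322 CPM in endothelial cells of the whole Ctrl and KO sections.

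The 10 genes lowest in endothelial cells against other cells were as follows. *Myh8*, a myosin of developing muscle, had log2 ratios of −5.10 and −3.43, from 3 and 46 counts in endothelial cells. *Fezf2*, a transcription factor of deep-layer cortical neurons, followed with −2.17 and −2.21 and *Igfbpl1*, a gene of immature neurons, with −2.02 and −1.81. *Sst*, the interneuron peptide whose locus drives Cre, was at −1.82 and −1.68. The neuronal transcription factors *Meis2* and *Pou3f2* had −2.01 and −1.82 in Ctrl and −1.66 and −1.66 in KO. *Mc4r*, *Prokr2*, *Pcdh9* and *Cpne4* completed the 10 lowest, between −2.66 and −1.62. Of these 10, *Myh8* at 49.9 and 96.3 CPM, *Mc4r* at 166 and 287 CPM, *Prokr2* at 249 and 337 CPM and *Sst* had endothelial levels below the brightest blank barcode, so their ratios also hold background counts.

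Lists of marker genes were counted over all members on the panel that the rule did not use, with no minimum count, so that 3 members under 20 observed and expected counts in Ctrl (*Aif1*, *Ccr2* and *Tac1*, with 9, 2 and 3 counts) are included. Over all tested genes the median log2 ratio of endothelial to other cells was −1.02 in Ctrl and −0.63 in KO, with 50.3% and 31.3% of genes at least 2-fold lower and 7.33% and 8.59% at least 2-fold higher. Of 7 genes for angiogenic ligands and receptors, *Aplnr*, *Fzd4* and *Cxcl12* were at least 2-fold higher in both sections, *Wnt7b* and *Epha3* at least 2-fold lower, and *Nrp1* and *Cxcr4* in between, with list medians of 0.66 and 0.93. All 6 pallial neuron genes in Ctrl and 5 in KO were at least 2-fold lower, with medians of −1.71 and −1.50. Of 8 GABA neuron genes, 6 in Ctrl and 5 in KO were lower and only *Adora2a* was higher. Of 7 radial glia genes, 6 and 3 were lower and none higher. *Ccnd2* and *Top2a* promote and mark cell division. They were at 187083 against 88562 CPM and 13718 against 10168 CPM in Ctrl, and at 98125 against 51010 CPM and 21965 against 17157 CPM in KO. The *Ccnd2* excess differed by territory. In the interior it was at 153325 against 70049 CPM in Ctrl and 83820.5 against 42615 CPM in KO. In the belt it was at 284750 against 270814 CPM and 151851 against 115941 CPM. In the outer tissue endothelial cells were lower, at 44552 against 55294 CPM and 38822 against 45829 CPM.

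Genes of neighbouring cell types were present in the chosen cells. None of the listed genes on the panel was at 0 counts in either section. The 6 microglial genes made up 1.01% of endothelial transcripts in Ctrl and 0.83% in KO, against 0.70% and 0.43% in other cells. *Csf1r* and *Cx3cr1* were more than 2-fold higher in KO endothelial cells, with log2 ratios of 1.03 and 1.09, and at 0.43 and 0.32 in Ctrl. *Ccr2*, with 2 counts and a level of 33.3 CPM in Ctrl that was below the brightest blank barcode, was at −1.50 (−4.74 to 0.56) in Ctrl and −0.12 in KO, and the list medians were 0.33 and 0.95. The same cell also met a microglial rule in 26 cases in Ctrl (2.22%) and 127 in KO (3.94%). Of 10 connective or meningeal genes, 1 in Ctrl and 2 in KO were at least 2-fold higher: *Col15a1* in both and *Igf2* in KO. Another 4 in Ctrl (*Hhip*, *Thbs2*, *Shisa3* and *Col14a1*) and 2 in KO (*Hhip* and *Thbs2*) were at least 2-fold lower, and the list medians were −0.36 and 0.13. Of 4 genes of oligodendrocyte precursors, 1 in Ctrl and 0 in KO were at least 2-fold lower and none higher. The part of transcripts from touching cells in these values was not tested.

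To compare shares of cells at equal depth, each cell was thinned to 25 transcripts, leaving out 146 Ctrl and 20 KO endothelial cells with fewer. The cells had been chosen before this thinning, at the depth of their own section. At least 1 *Aplnr* transcript was then found in 30.0% (27.2 to 32.9) of endothelial cells in Ctrl and 29.1% (27.5 to 30.7) in KO, against 3.40% and 3.14% of microglial cells and 9.90% and 8.31% of mural cells. Without thinning the shares were 43.3% and 61.7%, at median depths of 44 and 127 transcripts in endothelial cells, 49 and 125 in microglial cells and 54 and 144 in mural cells. At 25 transcripts per cell, *Aplnr* was thus detected about as often in both sections and above the level in cells that should lack it. *Ptprm* was found in 55.8% of Ctrl and 41.2% of KO endothelial cells, against 16.3% and 9.26% of microglial cells. *Top2a* was found in 25.4% (22.7 to 28.1) and 32.7% (31.1 to 34.4), against 18.6% and 26.8%. For several of the genes above, mural cells of the whole section held them at shares of the same order, above the endothelial share in some cases and below it in others. These classes lay in different places. In Ctrl 603 of 937 mural and 163 of 1171 endothelial cells lay in the outer tissue, in KO 1978 of 3034 and 608 of 3225. The shares of mural cells were not taken within territories. In Ctrl and KO, *Col15a1* was found in 15.8% and 16.6% of endothelial and 15.5% and 12.9% of mural cells, *Fzd4* in 5.95% and 8.52% against 7.54% and 6.53%, *Nr2f2* in 6.15% and 8.61% against 10.9% and 9.56%, and *Cxcl12* in 8.59% and 13.1% against 12.04% and 14.9%. *Cxcl12* was also found in 8.88% and 13.3% of microglial cells. *Nrp1* was found in 19.0% and 31.3% of endothelial cells, fewer than the 23.5% and 37.2% of microglial cells, and in 25.2% and 29.6% of mural cells. *Tbr1*, a neuronal factor, was found in 8.29% and 8.11% against 3.55% and 7.29%, and *Prox1* over the whole section in 3.71% and 4.74% against 4.14% and 4.89%, which is the level of the microglial cells.

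Because the interior holds mostly neural cells and the outer tissue mostly connective cells, the comparison was repeated within the interior. There 27 genes were at least 2-fold higher in endothelial than in other cells in both sections, 16 of them among the 21 of the whole section. In Ctrl 14.2% of tested genes were higher and 41.2% lower, and in KO 12.3% and 13.9%. *Aplnr* led again, at 11231 against 195 CPM in Ctrl and 11148 against 176 CPM in KO. The next genes are named here after their values were seen. *Klf4*, a transcription factor that answers to blood flow, was at 7707 against 476 CPM and 6358 against 191 CPM. *Igf2*, an imprinted growth factor gene also high in connective tissue, was at 37024 against 4412 CPM in Ctrl and 32133 against 2353 CPM in KO, whereas over the whole section it was at 83739 against 59902 CPM and 74178 against 36765 CPM. *Unc5b* had log2 ratios of 2.55 and 3.49, *S1pr3*, a receptor for sphingosine 1-phosphate, 2.52 and 2.66, and *Cdkn1a*, a cell cycle inhibitor, 1.96 and 2.51. *Cspg4* had 2.32 and 2.82 in the interior.

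Endothelial cells of the 3 territories differed among themselves. *Cldn5* (a gene of the rule) was at 120909 CPM in the interior, 106489 CPM in the belt and 45133 CPM in the outer tissue of Ctrl, and at 90430, 102240 and 34956 CPM in KO. *Aplnr* was at 11231, 21381 and 17433 CPM in Ctrl and at 11148, 20538 and 20957 CPM in KO. The *Cldn5* values are a description, since the gene chose the cells. The *Aplnr* level was lowest in the brain interior in both sections. Of the genes tested, 12% were at least 2-fold higher and 28.4% at least 2-fold lower in belt than in interior endothelial cells in both sections, and 21.1% and 35.4% in outer than in interior endothelial cells.

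The genes of the territories are named after their values were seen. Among genes higher in belt than in interior endothelial cells was *Cxcl12*, a chemokine that meninges release. In endothelial cells it was at 1820, 7294 and 3196 CPM in interior, belt and outer tissue of Ctrl and at 1906, 16932 and 4359 CPM in KO. Other cells had 307, 3888 and 3826 CPM in Ctrl and 488, 6852 and 5259 CPM in KO, so the neighbours showed a belt excess over the interior as well, by a larger factor. *Bmp7*, a growth factor gene also active in meninges, stood at 1704, 11545 and 3777 CPM in endothelial cells of Ctrl and 1527, 15392 and 3070 CPM in KO, and at 1562, 10776 and 4185 CPM and 1464, 8828 and 5704 CPM in other cells. *Mrc1* had belt to interior log2 ratios of 2.21 and 3.06, and in other cells it was also higher in the belt. Their interior and belt levels were 1803 and 7784 CPM in Ctrl and 500 and 4819 CPM in KO. *Nr2f2* was higher toward the outside, at 1123, 4585 and 5811 CPM in Ctrl and 1837, 5006 and 5983 CPM in KO. Other cells had 900, 3052 and 2189 CPM of it in Ctrl and 740, 2311 and 2130 CPM in KO. *Timp3*, an inhibitor of matrix proteases, stood at 2634, 8377 and 15884 CPM and at 3003, 10734 and 18714 CPM, and in other cells at 1225, 6460 and 11149 CPM and at 890, 5223 and 10610 CPM. *Col15a1*, one of the genes that drew the outline, stood at 2285, 9586 and 29540 CPM and at 2395, 8986 and 33112 CPM. *Dcn*, a connective tissue gene that also drew the outline, was at 1278, 16380 and 31090 CPM in endothelial cells of Ctrl and 1248, 27232 and 41976 CPM in KO. As its place was fixed in part by the drawing, this is a description of how much connective RNA the chosen cells held, and its part in the other values was not tested. *Adora2a*, which helped to draw the border of the pallium but not the brain outline, ran the other way, with 6313, 4001 and 2615 CPM in Ctrl and 5736, 3906 and 2106 CPM in KO. In other cells it was at 1234, 536 and 348 CPM and at 957, 309 and 341 CPM.

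**Figure D4:**
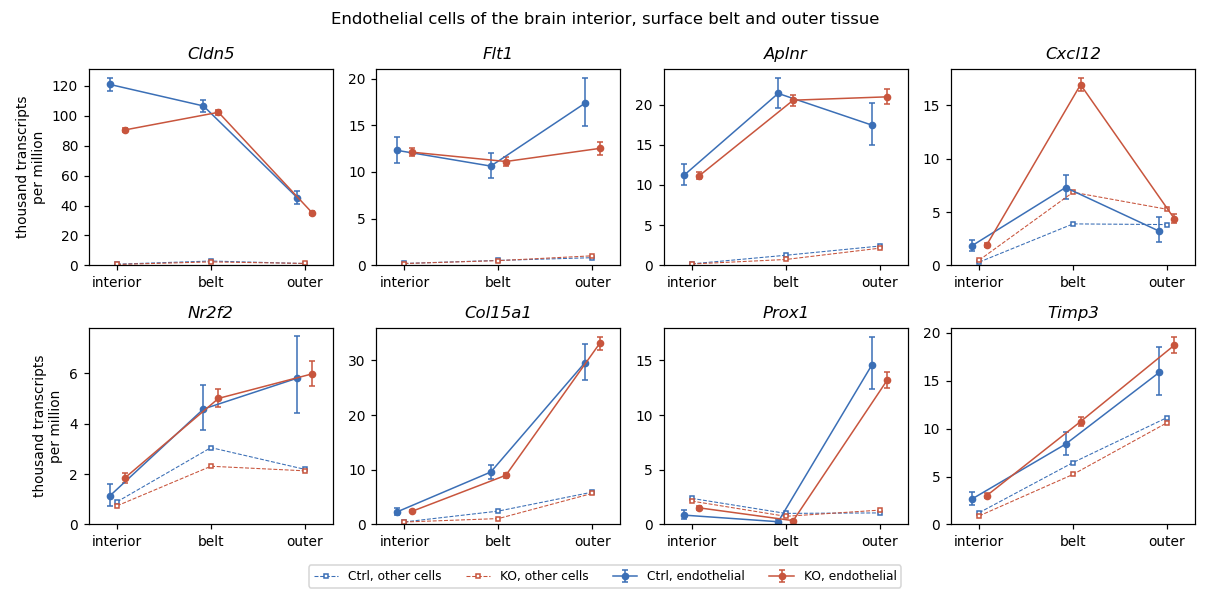
Levels (CPM, the axis divided by 1000) of 8 genes in endothelial cells (filled points, exact Poisson 95% intervals) and other cells (open squares, dashed) of the brain interior, surface belt and outer tissue, Ctrl in blue and KO in red. *Prox1* is high only in outer endothelial cells among the groups drawn, at 14625 CPM in Ctrl and 13192 CPM in KO, and *Cldn5* is lowest there.

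Neural transcripts in endothelial cells also differed by place. *Meis2* was at 16498 CPM in interior endothelial cells, 750 CPM in the belt and 1356 CPM in the outer tissue of Ctrl, and at 30405, 1528 and 3227 CPM in KO. In other cells it was at 46136, 4280 and 3212 CPM and at 65134, 8866 and 4303 CPM. Within the interior it was at 5980 CPM in endothelial cells of the pallium (the cortical part) and 21686 CPM in the rest in Ctrl, and at 16022 and 35646 CPM in KO. Other cells there had 22517 and 54927 CPM in Ctrl and 33873 and 76282 CPM in KO. The endothelial level of *Meis2* was below that of the other cells in each of these places, and both were highest in the interior outside the pallium. *Tbr1*, a factor of pallial glutamatergic neurons that was 1 of the 4 genes used to draw the pallium, is given as a description only, at 16766 and 3296 CPM in pallial and other interior endothelial cells of Ctrl and 20883 and 2682 CPM in KO. *Ccnd2* also differed within the interior, at 257240 CPM in pallial and 102070 CPM in other interior endothelial cells of Ctrl, against 84151 and 64800 CPM in other cells, and at 123654 and 69308 CPM in endothelial cells of KO, where other cells ran the opposite way with 33492 and 45869 CPM.

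In the outer tissue the endothelial cells included cells with *Prox1*, the factor of lymphatic endothelium. *Prox1* stood at 14625 CPM in outer, 852 CPM in interior and 250 CPM in belt endothelial cells of Ctrl, and at 13192, 1518 and 348 CPM in KO, while other outer cells had 1055 and 1309 CPM. After thinning to 25 transcripts, 15.5% of outer endothelial cells in Ctrl and 14.0% in KO held *Prox1*, against 1.63% and 2.87% in the interior and 0.53% and 0.80% in the belt. At least 2 *Prox1* counts were found in 25 of 163 outer endothelial cells in Ctrl (15.3%, 10.2 to 21.8) and 113 of 608 in KO (18.6%, 15.6 to 21.9). Other outer cells reached 2 counts in 0.91% and 4.08%. These cells were close together, with a median of 23.4 µm in Ctrl and 18.3 µm in KO to the nearest other such cell, against 328 and 156 µm from outer endothelial cells without *Prox1*.

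The *Prox1* cells were set against outer endothelial cells with 0 *Prox1* counts, with genes named after their values were seen. *Nrp2*, the neuropilin that lymphatic endothelium uses with the VEGF-C receptor, was at 26704 against 10232 CPM in Ctrl and 32173 against 18254 CPM in KO. *Mrc1*, a mannose receptor of lymphatic endothelium and macrophages, had log2 ratios of 2.01 and 1.69, *Fxyd6* 3.06 and 2.11, and *Prss23* 1.11 (−0.21 to 2.39) and 1.37 (0.94 to 1.81). Lower were *Aplnr* with −2.61 and −1.80, *Nrp1* with −3.10 and −0.75 and *Col15a1* with −3.36 and −1.66. *Flt1*, a gene of the rule, was also lower, with −2.56 and −1.70, and *Cldn5* had 0.10 and 0.50. The macrophage gene *Csf1r* had −0.55 and 0.47, with intervals on both sides of 0. The *Prox1* cells also held more transcripts, with medians of 90 against 53 in Ctrl and 186 against 126 in KO. A cell with more transcripts reaches 2 counts more easily.

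The last comparison set the endothelial cells of the KO section against those of the Ctrl section. The 138 genes with at least 50 endothelial counts in each included the 7 of the rule. Over them the median log2 ratio was 0.19, with 90% of genes between −0.57 and 0.99. The same genes had a median of −0.12 in other cells. Ratios were above 0 for 87 of them in endothelial cells and for 57 in other cells. Since CPM are shares of a total, a lower level of 1 abundant gene raises those of all others. *Ccnd2* alone was at 187083 CPM in Ctrl and 98125 CPM in KO endothelial cells, and at 88562 and 51010 CPM in other cells. The part of this in the medians and in the ratios of single genes was not tested. *Aplnr* was level, at −0.00 (−0.12 to 0.12), while it was at −0.51 in other cells. The other cells are those the rule left over, and the rule took 25.1% of *Aplnr* molecules in Ctrl and 40.5% in KO. The part of this choice of cells in the ratios of endothelial and of other cells was not tested. *Cobll1* was at 0.04 and −0.17. *Cxcl12* was at 0.83 in endothelial cells and 0.38 in others.

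*Cd24a*, a surface glycoprotein of immature neurons and other progenitors, was the gene furthest apart, with a log2 ratio of 1.99 (1.73 to 2.26) in endothelial and 2.16 in other cells. The 9 next were *Egln3*, an oxygen-sensing prolyl hydroxylase, with 1.13 in endothelial and 0.51 in other cells, *Chd7* with 1.11 and 0.77, *Serpine2*, a protease inhibitor, with 1.06 and 0.32, *Rnd3*, *Ebf1*, *Wnt7b*, *Meis2*, *Igfbpl1* and *Hpcal1*, the last with 0.91 and 0.60. Each of these 10 genes was also higher in the other cells of the KO section. At the low end stood *Adra2a*, an adrenergic receptor, with −0.96 and −1.06, *Ccnd2* with −0.93 and −0.80, *Olig1* with −0.76 and −1.10, *Ptprm* with −0.71 and −0.87 and *Mrc1* with −0.70 and −0.94. *Igfbp5*, *Ngfr*, *Cspg4*, *Egfr* and *Tunar* closed the list between −0.69 and −0.53, all lower in the other cells too.

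**Figure D5:**
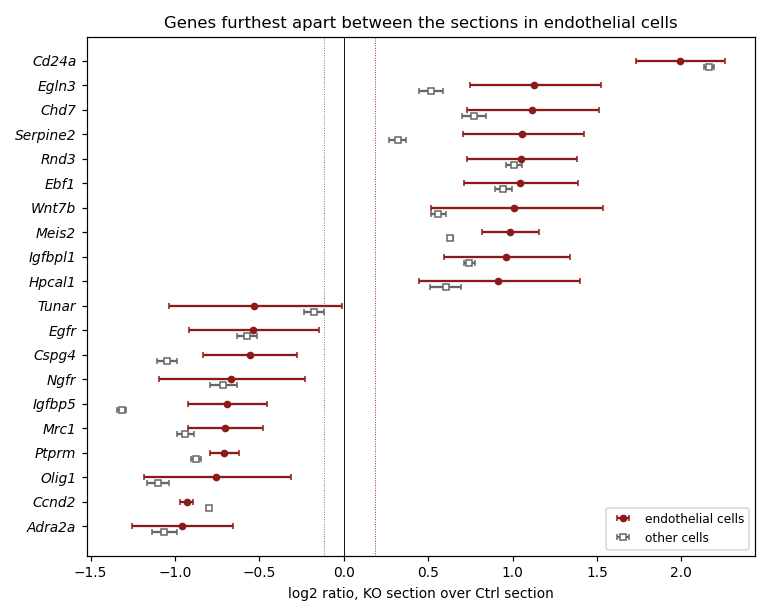
Log2 ratio of the KO to the Ctrl section in endothelial cells (dark red points) and other cells (grey squares) for the 10 highest and 10 lowest genes with at least 50 endothelial counts in each section. Bars are 95% counting intervals and dotted lines the medians over the 138 genes, 0.19 and −0.12. The endothelial and other-cell points of all 20 genes lie on the same side of 0.

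Of all 493 genes with at least 20 endothelial counts in both sections together, 96 (19.5%) were at least 2-fold higher in KO endothelial cells. Another 6 (1.22%) were at least 2-fold lower, around a median of 0.36. The 493 also included the 7 genes of the rule. Of the 500 panel genes, 198 in Ctrl and 207 in KO had an endothelial level above the brightest blank barcode, so many of the genes counted here lay within the range of the blanks. In other cells the shares were 4.26% and 1.01%. Of the 96, 89 had under 50 counts in Ctrl, with a median of 6, and 50 had an interval wholly above 0. Among them were 3 genes with 0 counts in Ctrl, whose ratio had no finite value. The limit of 20 counts was on the sum of both sections, and KO held 477807 endothelial transcripts against 60139 in Ctrl. A gene could thus pass mainly through KO, and the excess of higher over lower genes cannot be separated from this limit. With at least 50 counts in each section, 7 were 2-fold higher and 0 lower, without any test. The 6 lower genes were *Calb2*, *Chrna2*, *Hdc*, *Crym*, *Asic4* and *Htr1f*, named because they are few, with at most 36 counts in Ctrl, and 4 of them had an interval wholly below 0, *Asic4* and *Htr1f* not. In KO all 6 were below the brightest blank barcode. Of the listed genes 7 were at least 2-fold higher in KO endothelial cells, in 4 of the lists, beside 19.5% of all 493 genes. They were 3 of 9 angiogenic, 2 of 7 radial glia, 1 of 8 GABA neuron and 1 of 6 microglial genes. The lists without such a gene had 3, 4, 4, 1, 10, 6, 2 and 4 genes on the panel, and some genes were on more than 1 list. In the angiogenic list these were *Wnt7b*, *Epha3* and *Cxcr4*, at 1.01, 1.89 and 1.45, and at 0.56, 1.83 and 0.85 in other cells. The others were *Eomes* at 1.67 and *Hopx* at 1.53 among radial glia genes, *Isl1* at 1.04 among GABA neuron genes and *Ccr2* at 1.33 among microglial genes, with 1.25, 0.71, 0.93 and −0.05 in other cells. *Hopx* and *Ccr2* were below the brightest blank barcode in both sections, with 8 and 2 counts in Ctrl, and the interval of *Ccr2* ran from −1.01 to 4.82. *Eomes*, with 10 counts in Ctrl, was at 166 CPM there against 399 CPM for that barcode, and in KO at 527 against 523 CPM. No listed gene was 2-fold lower.

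Territory mix was not the same in both sections, so the ratios were also taken within territories. *Ptprm* was lower in KO in each of them, with −1.04 in the interior, −0.33 in the belt and −0.70 in the outer tissue. *Ccnd2* was at −0.87, −0.91 and −0.20. *Cd24a* was at 1.97 and 2.48 in interior and belt and at 0.60 (−0.20 to 1.48) in the outer tissue, where other cells had 1.65. *Serpine2* was at 0.65, 0.89 and 1.54. *Egln3* was at 0.37 (−0.43 to 1.25), 1.37 and 1.15, so its excess was measured outside the brain and at its surface but not resolved in the interior. *Cxcl12* was at 0.07 (−0.49 to 0.65) in the interior, 1.22 (0.95 to 1.49) in the belt and 0.45 (−0.18 to 1.13) in the outer tissue, where other cells had 0.67, 0.82 and 0.46 in the same order. *Aplnr* had intervals on both sides of 0 in all 3 territories.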

How the data were processed

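MERFISH was run by the authors on a Vizgen MERSCOPE with a panel of 500 genes and blank barcodes, and the instrument decoded the molecules and segmented the cells. The deposited files give raw transcript counts per cell and gene, each decoded molecule's position, and per cell the volume, an anisotropy ratio, and the PolyT and DAPI signal. The authors' clustering was not used. Both sections were taken as labelled, 1 per group.

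From the counts, cells under 20 panel transcripts were left out, and no doublet caller was run, so a segmented cell can hold RNA of its neighbours. Counts were summed over endothelial and over all other cells and divided by their panel total (CPM). Ratios are log2 of these CPM, with no pseudocount. Genes with at least 20 counts, observed or expected, are those called tested, and a gene past 2-fold was counted as higher or lower, with no statistical test. Intervals for sums are exact Poisson and for shares Clopper-Pearson at 95%, and a ratio's interval pairs opposite ends. Named genes are the 15 highest and 10 lowest against other cells, the 10 highest and 10 lowest between sections, and the marker lists. At least 50 endothelial counts in each section were required, except for the lowest against other cells. Those needed 50 counts expected from the other cells, and their endothelial counts could be fewer. Members and lists were chosen with earlier results of these data known. Steps were tested on simulated data. Alternatives varied the minimum counts, the markers, depth, imaging planes and territories, the last, with the removal of microglial cells and a minimum of 50 counts, chosen after seeing the data. Python 3.11.15, numpy 2.4.6, scipy 1.17.1, pandas 2.3.3 and matplotlib 3.10.9 were used.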

Additional observations from a re-analysis of the deposited data

Results flagged for a closer look

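For 5 genes with at least 50 endothelial counts in each section, endothelial and other cells lay on opposite sides of 0 between the KO and Ctrl sections, with intervals that did not include 0, out of 138 compared. These differences were not tested. Over the 138 genes the median ratio was 0.19 in endothelial and −0.12 in other cells. The lower interval bounds of *Pmp22* (0.0040), *Creb3l1* (0.019), *Fzd4* (0.0096) and *Timp3* (0.11) lay below that endothelial median. The bound of *Vcan* (0.21) lay above it. The part of this general offset and of the choice of cells in the opposite signs was not tested. *Pmp22* had a log2 ratio of KO to Ctrl of 0.24 in endothelial cells and −0.26 in other cells. *Creb3l1* had 0.28 and −0.44, and *Timp3* 0.29 and −0.43. *Fzd4*, the Wnt and norrin receptor, had 0.31 and −0.45, and *Vcan*, a matrix proteoglycan, 0.39 and −0.18. Within territories the opposite signs were not all kept: in the belt *Pmp22* had 0.42 in endothelial and 0.17 in other cells, *Vcan* 0.82 and 0.37 and *Creb3l1* 0.23 and 0.04, and in the outer tissue *Pmp22* had −0.19 and 0.05. *Timp3* and *Fzd4* kept them in all 3 territories, but the endothelial intervals of *Fzd4* and *Creb3l1* included 0 in each, and those of *Timp3*, *Vcan* and *Pmp22* in the interior and outer tissue.

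In 1 of 131 genes compared, the endothelial to other cell ratio pointed in opposite directions in the sections: *Dcn*, a connective tissue proteoglycan, had a log2 ratio of −0.30 in Ctrl and 0.18 in KO, and this difference was not tested. For *Ptprm*, of 107 genes compared, the belt to interior log2 ratio in endothelial cells was −0.43 in Ctrl and 0.28 in KO, also not tested.

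Cells under 20 transcripts were left out of the comparisons of the report. Of them, 176 in Ctrl and 21 in KO met every other condition of the rule, and a lower minimum is given among the alternatives.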

How the results depend on the processing

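No paired analysis was possible because each group had 1 section and no result came from a test. The log2 ratio of the endothelial share, KO to Ctrl, was 0.59 and depended on depth and on the rule. It was 0.98 with a minimum of 10 transcripts and −0.10, of the opposite sign but near 0, with a minimum of 50. It was 0.20 with at least 2 marker counts, 1.20 with at least 5 and 0.33 with a marker share of 5%. Without *Cldn5*, which left 64 Ctrl and 463 KO cells, it was 1.98. With KO thinned to the Ctrl mean per cell it was 0.095. It was 0.54 in the interior, 0.31 in the belt and 1.22 in the outer tissue. Genes at least 2-fold higher and lower in endothelial than in other cells in both sections numbered 9 and 19 without *Cldn5*, and 31 were lower within the interior. Genes 2-fold higher in KO endothelial cells numbered 47 after thinning, 62 in the outer tissue and 7 with at least 50 counts in each section. Genes 2-fold lower numbered 22 without *Cldn5*, 11 with the median ratio set to 1, 22 in the interior, 12 in the outer tissue and 0 with at least 50 counts in each. The belt to interior log2 ratio was 1.89 in Ctrl with a minimum of 50, and in KO 1.79 without *Cldn5* and 2.54 after thinning. Among named genes, 2 ratios of KO to Ctrl turned: *Igfbp5* was 0.0053 in the pallium and *Tunar* 0.32 in the belt. Of the other alternatives, 81 main values and 832 values of named genes or of the endothelial share of a section moved little. Another 241 values of named genes or section shares moved more, without turning. Of the section shares, 5 moved little and 23 more. The depth of the Ctrl section limits genes of low count.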

Other observations

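The segmented endothelial cells also differed from other cells at the median in shape and stain, measures that the rule did not use. A larger cell can reach the minimum counts of the rule more easily, and the part of this in the values was not tested. Their median volume was 1436 µm³ in Ctrl and 1083 µm³ in KO, against 1231 and 868 µm³ for other cells. Their median anisotropy, the ratio of long to short axis, was 1.42 and 1.44 against 1.39 and 1.41. Its spread overlapped widely, with quartiles of 1.26 and 1.63 against 1.24 and 1.60 in Ctrl and 1.25 and 1.69 against 1.25 and 1.62 in KO. The PolyT signal per volume, which stains messenger RNA, was 264041 and 352105 against 304169 and 461907 units, and the DAPI signal per volume, which stains DNA, 484212 and 538943 against 613826 and 820222 units. The volume and stain values of neighbouring cell types lay further from those of other cells. Mural and microglial cells had median volumes of 1583 and 1539 µm³ in Ctrl and 1273 and 1283 µm³ in KO, DAPI signals per volume of 392070 and 392750 units in Ctrl and 476442 and 472133 units in KO, and PolyT signals per volume of 239159 and 240140 units in Ctrl and 331981 and 324409 units in KO. Their median anisotropy was 1.41 and 1.38 in Ctrl and 1.45 and 1.40 in KO, that of microglial cells being below that of other cells in general. So the larger volume and weaker stain at the median, for which no test was possible, were not particular to endothelial cells. In the outer tissue of Ctrl the median anisotropy of endothelial cells was 1.428 and that of other cells 1.430.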
